A study of Rattus norvegicus with 8 samples.

Results

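The proteasome is the barrel-shaped protease that degrades proteins marked with ubiquitin chains. Its 20S core particle is built of outer alpha rings, which gate the entry pore, and inner beta rings, which hold the catalytic sites. The 19S regulatory particle caps the core: its ATPases unfold substrates, and its non-ATPase subunits bind and remove the ubiquitin chain. In striated muscle a few ubiquitin ligases, among them atrogin-1 (Fbxo32) and the MuRF proteins (Trim63, Trim54 and Trim55), mark contractile proteins. Of these, Fbxo32 and Trim63 are known as markers of muscle wasting. Transcript levels of these genes were compared between atrial and ventricular muscle of the rat.

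The set comprised 36 genes chosen by symbol: the 20S alpha and beta subunits, the 19S ATPase and non-ATPase subunits, the activators Psme1, Psme2 and Psme4, and 4 muscle ubiquitin ligases. Of these, 34 were measured, out of 14213 genes with a probe set of their own. Psmb6, the catalytic subunit with caspase-like activity, was listed only on a probe set shared with Psmb6l1, and no probe set was listed for Trim55, so neither is given a value. No filter on low values was applied, and all 34 genes had a log2 signal intensity above 4. The 34 genes were covered by 46 probe sets, and the probe set with the highest mean over the 8 arrays stood for its gene. For 17 of the genes the reference lists named pseudogenes, 40 in all, whose transcripts a probe set might also detect, which was not tested.

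Atrial appendage was set against ventricular free wall, both from untreated male Sprague-Dawley rats weighing 225 to 275 g. The left side is given by the study's methods and not by the sample labels. Tissue of 13 rats was combined into 4 independent pools per tissue, and each pool was hybridized to 1 array. How animals were assigned to pools is not given in the sources used here, so p-values measure the spread between pools. In whole tissue, fewer cells of a type and less RNA per cell cannot be told apart.

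The labels were borne out by tissue markers: 6 of 6 atrial myocyte markers were higher and 7 of 7 ventricular myocyte markers lower in the atria. Atrial pools 1 and 4 stood apart, with the median ventricular marker at -3.52 and -3.12 log2 units from the ventricular mean, whereas in pools 2 and 3 it stood at -4.48 and -4.77. The tissues also differed in markers of other cell types. Fibroblast markers were higher in the atria (8 of 10, none lower). Mural cell markers were lower (10 of 10), though Des, Kcnj8 and Abcc9 in that list need not be confined to mural cells. Of the endothelial markers 7 of 9 were lower, while Vwf was higher by 0.93. Leukocyte markers were lower for 9 of 15 and higher for 2. Mesothelial markers, from the outer lining of the heart, were higher for 6 of 7 (median 3.29), with a summed level of 5.61 to 10.6 in the atrial pools and 0.941 to 1.06 in the ventricular pools, on a scale where the ventricular mean is 1. Adipocyte markers were higher for 4 of 7 (median 2.43), and their median in single atrial pools ran from 0.79 in pool 1 to 3.50 in pool 4, relative to the ventricular mean. General cardiomyocyte markers had a summed level of 0.874 to 0.944 in the atrial pools and 0.987 to 1.02 in the ventricular pools, on the same scale. The part of these differences in the results below was not tested. Leaving out atrial pools 1 and 4 removes those with the highest median of ventricular markers. It does not remove the fibroblast, mural, endothelial, leukocyte and mesothelial differences, which all 4 atrial pools showed. Pools 1 and 4 also stood at opposite ends for mesothelial markers (median 3.94 and 2.87) and for adipocyte markers, and fewer arrays remain without them.

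The promoters of some members hold sequences through which the pathway is known to be regulated, and these are shown to place the genes. The antioxidant response element, whose core is TGACNNNGC, is bound by Nfe2l1 and Nfe2l2, transcription factors known to drive proteasome genes. GTAAACA is bound by FOXO factors, which are known to drive the muscle ligases. In the 250 bases before the gene start, on both strands, the first core occurred in 6 of 31 members with a promoter in the table (19.4%), against 10.1% of all 33469 promoters. The FOXO letters occurred in 1 member (3.23%), Trim63, against 3.21% of all promoters. CCAAT, bound by NF-Y, occurred in 14 members (45.2%) and in 34% of all promoters. Members were counted once per gene and the background once per promoter, so these shares are not in like units. These are letter matches and not shown to be bound. Windows around the antioxidant response element matches of 4 members and the FOXO match are given from RefSeq, build GRCr8, 5′ to 3′ on the strand of the gene, with the match in capitals. Those of Psma3 and Psmb6 are left out because they overlap the bounds of the gene in the gene annotation.
Psmb2, chr5:144254980-144255009, plus strand, match starting 68 bases before the gene start: cccgcgccaaTGACCGGGCggtcgcatatc
Psmb5, chr15:32047420-32047449, minus strand, match starting 60 bases before: cgtgaagctgTGACGTCGCggcgttgcccg
Psmd1, chr9:94157796-94157825, plus strand, match starting 165 bases before: accagatctaTGACCTCGCgagaattataa
Psme4, chr14:108706578-108706607, plus strand, match on the opposite strand, starting 55 bases before: ggagaaagccGCTGGGTCAcctcctcgcct
Trim63, chr5:151817020-151817049, plus strand, FOXO letters on the opposite strand, starting 205 bases before: caatctgttctTGTTTACgacccccattgc

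The members differed little between atria and ventricles, and those that did went in both directions. Of the 34 genes, 12 passed the test (limma, Benjamini-Hochberg adjusted p below 0.05 over all 31042 probe sets), 6 higher and 6 lower in the atria. That is 35.29% of the members, against 45% of all genes (22.5% higher and 22.5% lower) and 58.6% of the 2312 genes of like signal intensity (mean log2 between 7.94 and 10.41, the 10th and 90th percentiles of the members). Groups did not overlap for 15 members, and over all genes for 44.1%. No member reached the study's thresholds (adjusted p below 0.0001 and a difference of at least 1.8-fold) by limma or by SAM, whereas 5.9% of all genes did so by limma. At an unadjusted p below 0.05 by limma there were 13 members of 34, beside 7658 of all 14213 genes. Over all 46 probe sets of the members, 10 were higher and 6 lower, against 38.8% of all probe sets passing (18.6% higher and 20.1% lower) and 4.51% past the study's thresholds.

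Differences ran from -0.29 for Psme2 to 0.30 for Psma2 on the log2 scale, atrium minus ventricle throughout. The median absolute difference was 0.12 for the members, 0.20 for all genes and 0.25 for genes of like intensity. All 34 members differed by less than 0.3 in size, as did 65.6% of all genes. The largest member difference was exceeded by 35% of all genes and 42.7% of those of like intensity. Spread between pools was small, with a median SD of 0.06 in the atria and 0.06 in the ventricles, and single SDs between 0.01 and 0.20. The median over the 34 members was 0.03, beside -0.04 over all genes.

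**Figure D1:**
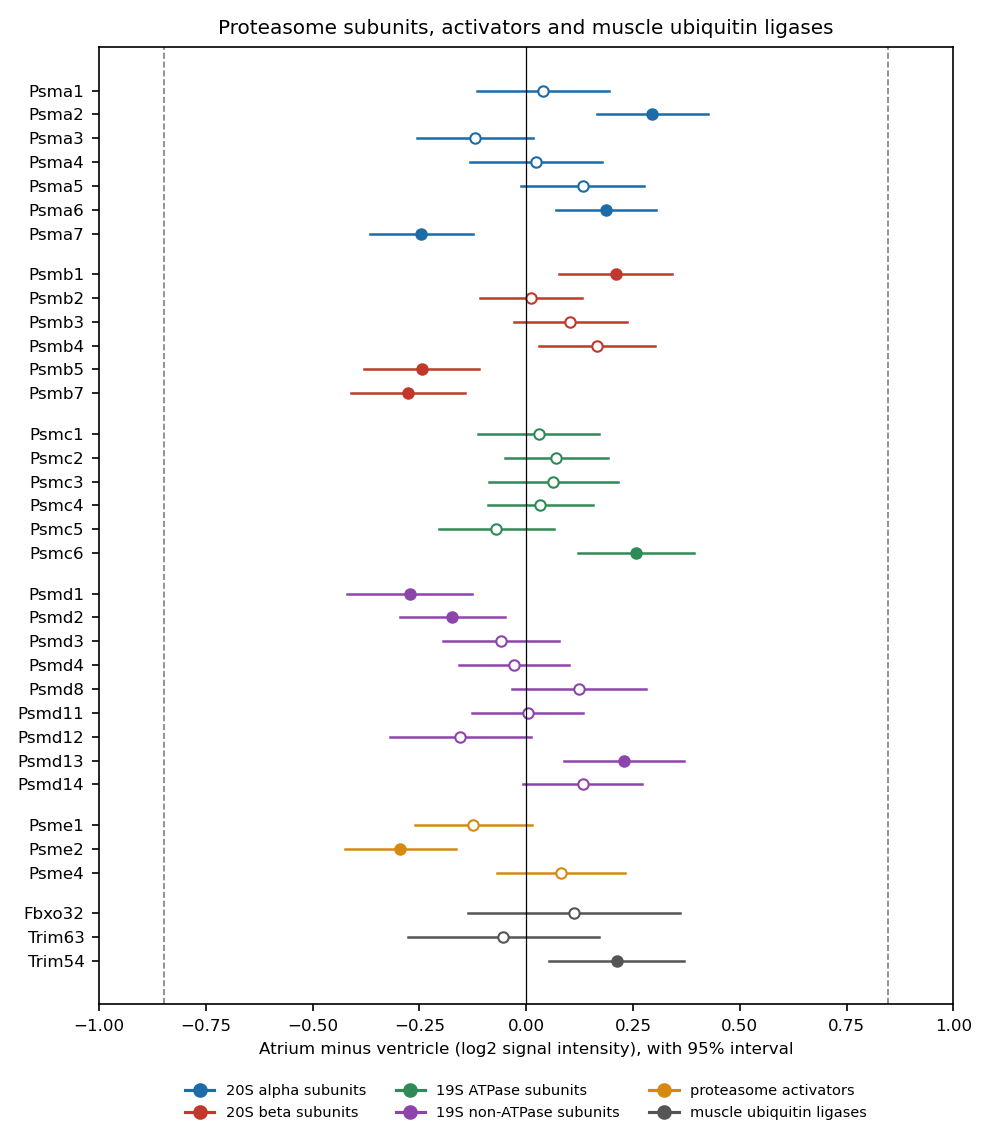
Difference between atrial and ventricular means (log2 signal intensity, atrium minus ventricle, horizontal axis) for the 34 measured members, with 95% intervals, coloured by role. Filled circles passed the test and dashed lines mark the 1.8-fold threshold, which no member reached; differences lie between -0.29 and 0.30.

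Among the 20S alpha subunits, which form the gated outer rings, Psma2 and Psma6 were higher and Psma7 was lower in the atria, and 4 of 7 did not pass the test. Psma2 had 9.93, 9.88, 9.81 and 9.89 in atrial pools 1 to 4 and 9.63, 9.50, 9.59 and 9.61 in the ventricular pools. All atrial pools lay above all ventricular pools, and the difference was 0.30 (SE 0.06, adjusted p = 0.0025), or 1.23-fold. Psma7 went the other way, with 10.09, 10.02, 10.03 and 10.02 in the atria against 10.29, 10.31, 10.29 and 10.25 in the ventricles, without overlap. The tissues differed by -0.25 (adjusted p = 0.0047). Psma6 differed by 0.19 (adjusted p = 0.018), and without atrial pools 1 and 4, on fewer arrays, the difference was 0.185 but no longer passed (adjusted p = 0.055). The other alpha subunits differed by -0.12 (Psma3) to 0.13 (Psma5).

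The measured catalytic subunits of the beta ring were both lower in the atria. Psmb5, which carries the chymotrypsin-like activity, had 10.37, 10.25, 10.25 and 10.28 in the atria and 10.55, 10.60, 10.46 and 10.51 in the ventricles, and the tissues differed by -0.24 (adjusted p = 0.009). Psmb7, which carries the trypsin-like activity, had 9.56, 9.53, 9.57 and 9.62 in the atria against 9.87, 9.81, 9.77 and 9.93 in the ventricles and so differed by -0.28 (adjusted p = 0.0043). Neither gene had overlapping groups. The Psmb5 call came from its brightest probe set. The others were dim, with means of 3.80 and 4.88 in the atria and 3.86 and 4.95 in the ventricles, and differed by -0.05 and -0.06 without passing, and the mean over all its probe sets, dim ones included, did not pass (-0.12, adjusted p = 0.085).

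Psmb1, a structural subunit of the same ring, was higher in the atria. It had 10.60, 10.52, 10.51 and 10.47 in the atria and 10.35, 10.36, 10.24 and 10.31 in the ventricles, differing by 0.21 (adjusted p = 0.018) that did not pass without ventricular pool 3 (0.18, adjusted p = 0.054) or without atrial pools 1 and 4 (0.20, adjusted p = 0.051). Psmb3 and Psmb4 had no overlap between tissues but did not pass, with differences of 0.10 (adjusted p = 0.19) and 0.17 (adjusted p = 0.053). Psmb4 passed without atrial pool 4 (0.18, adjusted p = 0.042). Psmb2 differed by 0.01.

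**Figure D2:**
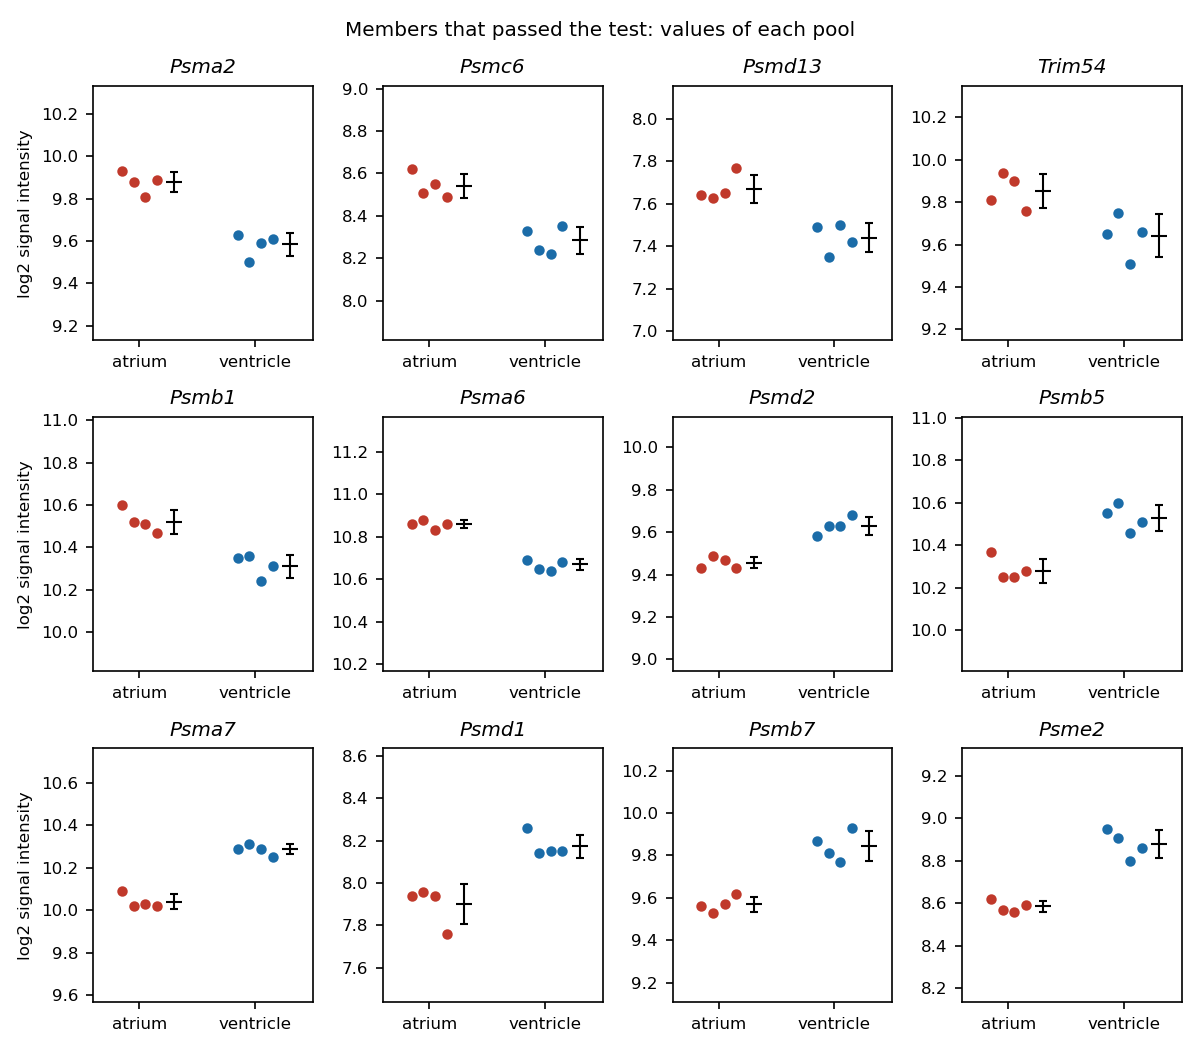
Log2 signal intensity (vertical axis) of each pool for the 12 members that passed the test, atrium left and ventricle right in each panel, with bars for the mean and SD of 4 pools. Every panel spans the same number of log2 units, and in each the 2 tissues do not overlap; the differences lie between -0.29 and 0.30.

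Of the 6 ATPases of the 19S base, which unfold the substrate, Psmc6 alone passed, and 5 did not. It had 8.62, 8.51, 8.55 and 8.49 in the atria against 8.33, 8.24, 8.22 and 8.35 in the ventricles, and the tissues differed by 0.26 (adjusted p = 0.0071). Its other probe sets were higher as well, by 0.31 (adjusted p = 0.0082) and 0.44 (adjusted p = 0.0048). The remaining ATPases differed by -0.07 (Psmc5) to 0.07 (Psmc2).

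The non-ATPase subunits were divided. The scaffold subunits Psmd1 and Psmd2, the largest of the base, were lower in the atria, and the lid subunit Psmd13 was higher. Psmd1 had 7.94, 7.96, 7.94 and 7.76 in the atria and 8.26, 8.14, 8.15 and 8.15 in the ventricles and so differed by -0.27 (adjusted p = 0.0077). Psmd13 had 7.64, 7.63, 7.65 and 7.77 in the atria against 7.49, 7.35, 7.50 and 7.42 in the ventricles, differing by 0.23 (adjusted p = 0.015). Without atrial pools 1 and 4 the difference was 0.20 and did not pass on the fewer arrays (adjusted p = 0.065). Psmd2 differed by -0.17 (adjusted p = 0.03), and this call was lost when atrial pool 1 or 3 or ventricular pool 2, 3 or 4 was left out (adjusted p from 0.056 to 0.078), while the difference stayed between -0.155 and -0.178.

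Psmd14, the deubiquitinase of the lid, differed by 0.13 (adjusted p = 0.12) on its brightest probe set, while another passed at 0.31 (adjusted p = 0.0024). Psmd4, a ubiquitin receptor, differed by -0.03, and Psmd11 by 0.00. Psmd12, Psmd3 and Psmd8 differed by -0.15, -0.06 and 0.12 without passing.

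No shift was seen over the listed 20S and 19S subunits as a whole. Subunits outside the list, such as Sem1 and Adrm1 given below, are not counted here. Over the 28 measured 20S and 19S subunits, 5 were higher and 5 lower, and the median difference was 0.03. The mean of these subunits, given as the deviation from the mean of the 8 arrays, was 0.02, 0.01, 0.00 and 0.01 in the atria and 0.02, -0.01, -0.05 and 0.01 in the ventricles, so that the tissues overlapped. The direction of subgroup medians depended on scaling. The alpha median was 0.04 and the ATPase median 0.05 as deposited, but -0.03 and -0.01 after quantile normalization. Over all 34 members, ligases and activators included, the split was 6 higher and 6 lower as deposited. After either further normalization of the arrays (quantile or cyclic loess) it was 4 higher and 8 lower. Psmd13 and Trim54 no longer passed, and Psma3 and Psmd12 passed as lower.

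Among the activators, which open the core in place of the 19S cap, Psme2 was lower in the atria. It had 8.62, 8.57, 8.56 and 8.59 in the atria against 8.95, 8.91, 8.80 and 8.86 in the ventricles, and the groups stood clear of each other. The difference was -0.29 (SE 0.06, adjusted p = 0.0025). Psme1, its partner in the interferon-inducible activator ring, had 10.86, 10.75, 10.79 and 10.69 in the atria and 10.93, 10.93, 10.83 and 10.89 in the ventricles. These groups overlapped, and the difference of -0.12 did not pass (95% interval -0.26 to 0.01, adjusted p = 0.14). The pair are neighbours on chromosome 15, with 1 coding gene between them.

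Psme4, which encodes the nuclear activator of the proteasome known as PA200, had 9.11, 9.23, 9.27 and 9.19 in the atria and 9.18, 8.99, 9.10 and 9.20 in the ventricles. The tissues overlapped and the difference of 0.08 did not pass (95% interval -0.07 to 0.23, adjusted p = 0.36), although another of its probe sets did (0.23, adjusted p = 0.025).

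The best known wasting ligases did not pass the test. Fbxo32 had 5.18, 5.22, 5.62 and 5.27 in the atria against 5.06, 5.29, 5.09 and 5.41 in the ventricles, with overlapping groups. Here the tissues differed by 0.11 (95% interval -0.14 to 0.36, adjusted p = 0.46). Trim63, with the FOXO letters shown above, had 8.02, 8.19, 8.17 and 7.82 in the atria and 8.03, 7.95, 8.11 and 8.32 in the ventricles, again with overlap, and differed by -0.05 (95% interval -0.28 to 0.17, adjusted p = 0.70).

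Trim54, the MuRF protein that associates with microtubules and the sarcomere, was higher in the atria. It had 9.81, 9.94, 9.90 and 9.76 in the atria against 9.65, 9.75, 9.51 and 9.66 in the ventricles, a narrow separation with a difference of 0.21 (SE 0.07, adjusted p = 0.037). The call did not hold when atrial pool 1, 2 or 3 or ventricular pool 1, 3 or 4 was left out (adjusted p from 0.052 to 0.10), with differences of 0.167 to 0.226.

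The inducible subunits of the immunoproteasome, which replace the catalytic beta subunits in immune cells and after interferon, were all lower in the atria (3 of 3). Over all genes 22.5% were lower. Psmb9, which takes the place of Psmb6, had 7.21, 6.87, 7.07 and 6.99 in the atria and 7.73, 7.56, 7.50 and 7.71 in the ventricles, and the tissues differed by -0.59 (SE 0.09, adjusted p = 3.0e-04). Psmb8, the counterpart of Psmb5, had 6.83, 6.74, 6.52 and 6.53 in the atria against 7.29, 7.01, 6.94 and 6.89 in the ventricles and so differed by -0.38 (adjusted p = 0.015). Psmb9 and Psmb8 had no overlap between the tissues and lie on chromosome 20 with 1 coding gene between them.

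Psmb10, the counterpart of Psmb7, had 7.07, 7.01, 6.94 and 6.89 in the atria against 7.27, 7.10, 7.11 and 7.19 in the ventricles. The gene passed at -0.19 (adjusted p = 0.046), but not when any pool other than atrial pool 1 was left out (difference -0.155 to -0.209, adjusted p from 0.055 to 0.13), and the tissues were close without overlapping. Most leukocyte markers moved in the same direction: 9 of 15 were lower and 2 higher in the atria. Their summed level was 0.565 to 0.723 in the atrial pools and 0.958 to 1.03 in the ventricular pools, relative to the ventricular mean. Bright markers such as Cd74 and Lyz2 weigh most in this sum. Cd68, Csf1r, Itgam and Lyz2 differed by 0.03, -0.09, -0.11 and -0.29 without passing. Ptprc, the pan-leukocyte antigen CD45, differed by -0.78, and Cd74, which chaperones antigen-presenting molecules, by -0.95, whereas the monocyte marker Cd14 differed by 0.60. Their part in the immunoproteasome result was not tested.

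**Figure D3:**
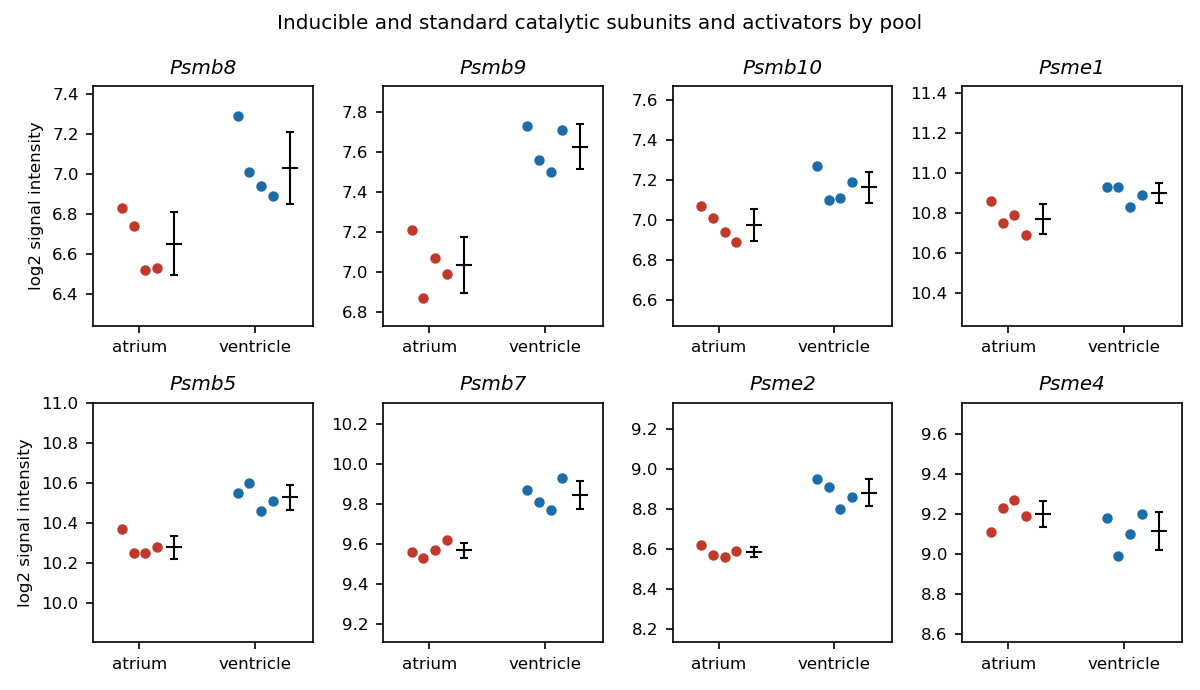
Log2 signal intensity (vertical axis) of each pool for inducible subunits (Psmb8, Psmb9, Psmb10), standard catalytic subunits (Psmb5, Psmb7) and activators (Psme1, Psme2, Psme4), atrium left and ventricle right, with bars for the mean and SD of 4 pools. Psmb9 shows the widest gap of the 8, -0.59, and Psme1 and Psme4 overlap.

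Other subunits and partners of the proteasome were more often higher than lower, 5 against 1 of 11 measured. The share passing was 54.55%, beside 45% of all genes and 58.6% of genes of like intensity to the members. Psmd10 (gankyrin), a chaperone of 19S assembly, had 8.44, 8.35, 8.29 and 8.15 in the atria against 7.68, 7.70, 7.54 and 7.66 in the ventricles, differing by 0.67 (adjusted p = 4.6e-05). Uchl5, a deubiquitinase that docks on the 19S particle, had 8.04, 8.10, 8.05 and 8.02 in the atria against 7.48, 7.41, 7.32 and 7.44 in the ventricles, and the tissues differed by 0.64 (adjusted p = 1.3e-05). Psmd5 (0.43, adjusted p = 7.7e-04) and Sem1 (0.40, adjusted p = 0.0084) were also higher. Adrm1, the ubiquitin receptor on which Uchl5 docks, was lower (-0.31, adjusted p = 0.0097). Each of these differences exceeded in size that of any member.

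Of the 5 assembly chaperones of the core, only Psmg2 passed (0.16, adjusted p = 0.043), a share of 20% beside 45% of all genes. That call was lost when any single pool was left out (difference 0.146 to 0.173, adjusted p from 0.051 to 0.096) and after quantile normalization (0.09, adjusted p = 0.23). Pomp, Psmg1, Psmg3 and Psmg4 differed by -0.11, -0.07, 0.09 and -0.14. Of the ubiquitin-activating enzymes at the head of the pathway, Uba6 was higher (0.30, adjusted p = 0.011), as were all 4 of its probe sets, and Uba1 differed by -0.11 (adjusted p = 0.18).

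Ubiquitin-conjugating enzymes (E2) numbered 23 measured, 7 higher and 3 lower (43.48% passing, beside 45% of all genes). Ube2e2 (0.51) and Ube2n (0.39), which forms chains used in signalling, led those higher in the atria, and Ube2b (-0.30) and Ube2j1 (-0.20) led those lower. The Ube2b call did not hold over the mean of its probe sets (adjusted p = 0.093), some of which had means below a log2 of 4 in both tissues, while a bright one differed by -0.09 (adjusted p = 0.27). The call of Ube2j1 was lost without atrial pool 3 or ventricular pool 1 or 2 (difference -0.181 to -0.186, adjusted p from 0.058 to 0.062).

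The widest differences in the pathway lay among other muscle and cardiac E3 genes. Of 24, 8 were higher and 3 lower (45.83% passing, beside 45% of all genes). The study's thresholds were reached by 4, beside 5.9% of all genes. Klhl41, a substrate adaptor of cullin ligases in the sarcomere, had 9.84, 9.73, 9.91 and 9.71 in the atria against 8.61, 8.49, 8.48 and 8.56 in the ventricles. It was 2.40 fold higher in the atria (adjusted p = 2.3e-07). Fbxo30, an F-box protein linked to muscle loss in mice, had 6.58, 6.50, 6.51 and 6.40 in the atria against 5.52, 5.39, 5.19 and 5.65 in the ventricles and was 2.09 fold higher (adjusted p = 9.1e-06).

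In the other direction stood Trim72, also called MG53, a membrane repair protein of striated muscle. It had 7.86, 7.91, 7.82 and 7.84 in the atria against 10.15, 10.19, 9.97 and 10.14 in the ventricles, which was 4.76 fold higher in the ventricles (difference -2.25, adjusted p = 3.5e-09). Asb2, an adaptor of cullin ligases that targets filamins, differed by -0.72 (adjusted p = 5.5e-05). The fourth gene past the study's thresholds was Klhl40, a close relative of Klhl41, at 0.96.

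**Figure D4:**
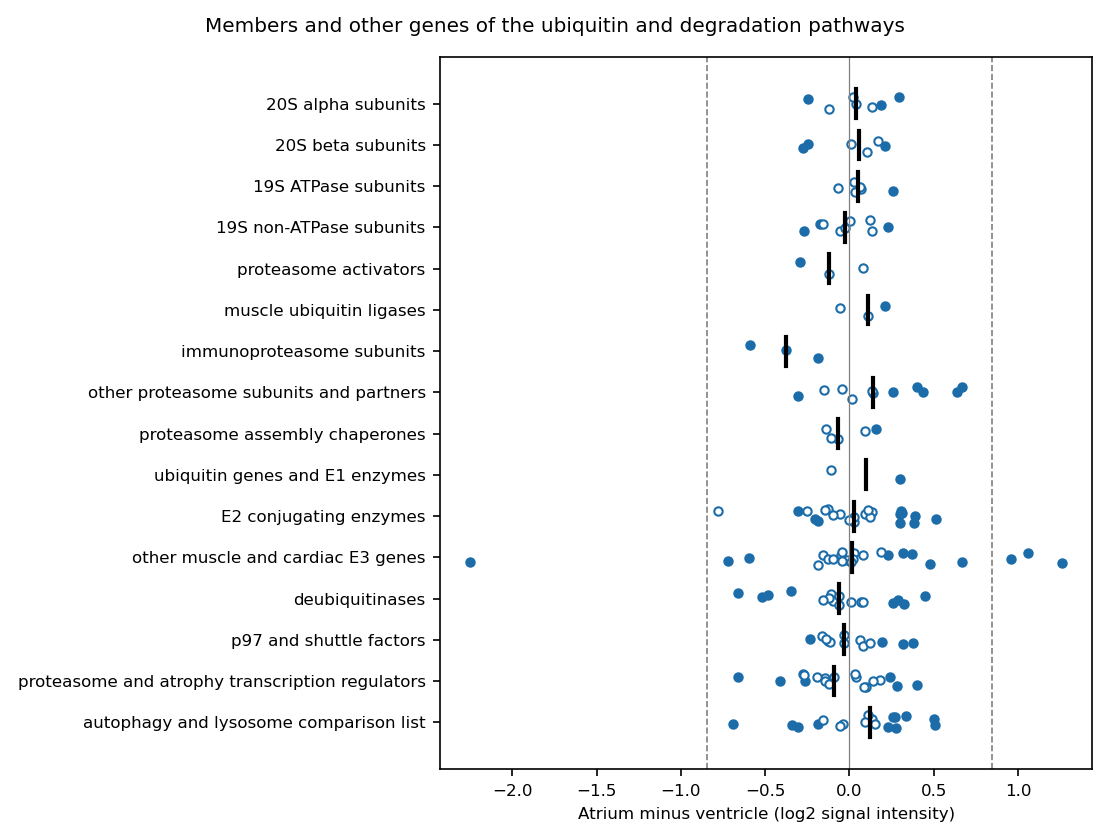
Difference between atrial and ventricular means (log2 signal intensity, atrium minus ventricle, horizontal axis) for each gene of the member subgroups and of the other pathway lists, 1 circle per gene, filled where the test was passed, with a vertical bar at each list median. Dashed lines mark 1.8-fold; members stay within -0.29 to 0.30, while Trim72 lies at -2.25 and Klhl41 at 1.26.

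Deubiquitinases were evenly divided, with 4 higher and 4 lower of 17 (47.06% passing, beside 45% of all genes). Uchl3 (0.32) was among the higher, as was Uchl1 (0.45), whose means lay below a log2 of 4 in both tissues, and Usp2 (-0.66) and Usp4 (-0.52) were the lowest. Of 13 genes for p97 and the shuttle factors, which carry ubiquitinated proteins to the proteasome, 3 were higher and 1 lower (30.77% passing). Ubqln2 (0.38) and Ubqln1 (0.32) were higher and Ufd1 (-0.23) was lower. The mean of the probe sets did not pass for Ufd1 (adjusted p = 0.28), nor for Ubqln2 (adjusted p = 0.24), whose other probe sets had means below a log2 of 4 in both tissues.

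Among 19 transcription regulators of the proteasome and of atrophy, 3 were higher and 4 lower (36.84% passing, beside 45% of all genes). Akt2 (0.40) and Nfyb (0.28), a subunit of NF-Y, were higher. Other probe sets of Akt2 were higher by 0.68 (adjusted p = 1.2e-04) and 0.91 (1.88-fold, adjusted p = 8.8e-06), the second past the study's thresholds, and a dim one differed by 0.04 without passing. Foxo1, a FOXO factor known to raise Fbxo32 and Trim63, differed by -0.66, and the kinase Akt1, which restrains FOXO factors, by -0.41. The other FOXO factors in the list did not pass: Foxo3 differed by 0.18 (adjusted p = 0.066) and Foxo4 by -0.27 (adjusted p = 0.059). Nfe2l1 and Nfe2l2 were singled out after their values were seen. Nfe2l2 was higher (0.24, adjusted p = 0.0068), though neither it nor Nfyb passed after quantile normalization (adjusted p = 0.062 and 0.054), and Nfe2l1 was lower on its brightest probe set (-0.27, adjusted p = 0.02), while its other probe sets differed by 0.22 and 0.17 without passing. The Nfe2l1 call was lost without ventricular pool 2 (-0.23, adjusted p = 0.059).

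In the autophagy and lysosome genes, the other main route of protein breakdown, 7 of 18 were higher and 4 lower. The lysosomal proteases Ctsl (0.51) and Ctsb (0.50) were the highest, and Ulk1 (-0.69), the kinase that starts autophagy, and Map1lc3a (-0.34) were the lowest. The share passing was 61.11% here, beside 45% of all genes and 58.6% of genes in the members' range of intensity, both given above.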

How the data were processed

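RNA from 4 pools each of atrial and ventricular tissue (10 µg per array) was hybridized to Affymetrix expression arrays. The authors deposited log2 signal intensities summarised with RMA, per the labels, for 31042 probe sets; its version and settings are not given in the sources used here. RMA draws arrays to a common distribution, so a shift of most genes in 1 tissue would not be seen. Array medians lay between 4.80 and 4.81. The number of arrays limits the precision.

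Probe sets were named through the platform annotation: 20826 had 1 gene symbol, 436 several and 9780 none, and 9 symbols were updated. All 8 arrays were fitted with limma 3.58.1 (R 4.3.3), atrium minus ventricle, and p-values were adjusted by the Benjamini-Hochberg method over all probe sets. The fit was checked on simulated data. SAM, which the study's methods name, was an alternative over 70 splits, as were other normalizations, a filter, a replicate block, other probe set rules and left-out arrays.

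The members and lists were chosen with earlier results of these data known. Full values are given for ligases, activators, catalytic subunits and, in each other subgroup, the called members with the largest difference in each direction or against the subgroup median. In the other lists up to 2 called genes in each direction are named, and all genes of lists of 6 or fewer, except some that are not reported here. Single markers and further genes named were chosen after their values were seen.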

Additional observations from a re-analysis of the deposited data

Results flagged for a closer look

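Among 68 groups of 4 pools (34 members in 2 tissues), 4 had a highest or lowest pool far from the others by Dixon's gap ratio at the 95% level, and chance alone would give about 3.4. Of these, 3 fell on atrial pool 4. Psmd1 was lowest in atrial pool 4 (7.76, ratio 0.867) and, among ventricular pools, highest in pool 1 (8.26, ratio 0.911). Its difference was -0.23 without the first and -0.25 without the second, and the call remained. Psmd13 was highest in atrial pool 4 (7.77, ratio 0.875), and its difference was 0.20 without that pool, still called. Psmd8 was highest in atrial pool 4 (8.52, ratio 0.93), and its difference, not called, was 0.07 without it.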

How the results depend on the processing

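The count of members at the study's thresholds was 0 in every setting run. Of the 12 called members, 6 (Psma2, Psma7, Psmb7, Psmc6, Psmd1 and Psme2) passed under each of 16 settings compared at an adjusted p below 0.05, and no called member changed direction. With 6 higher and 6 lower members as deposited, 3 were higher and 5 lower without atrial replicates 1 and 4 (Psma6, Psmb1, Psmd2 and Psmd13 were lost, with fewer arrays in the fit). At an adjusted p below 0.01, 2 were higher and 5 lower. Counting every probe set, 10 were higher and 6 lower. Leaving out 1 replicate at a time gave 4 to 7 higher and 5 to 6 lower. Quantile normalization and cyclic loess each gave 4 higher and 8 lower, trended and robust limma 7 and 7, the filter on the dimmest 40% 7 and 6, and the mean of probe sets 7 and 5. SAM called 3 members at a false discovery rate of 0.01% without the fold criterion and 19 at 5%. The share of all genes called by SAM is not given here, so these counts have no background beside them. Nfe2l1 changed sign as the mean of its probe sets (0.039, adjusted p = 0.69), since they differed in opposite directions.

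Tissues share replicate numbers, but whether a number marks the same animals is not given. Atrial and ventricular arrays of the same number correlated in their deviations at 0.13, 0.16, -0.15 and -0.19. The ventricular array of the same number was the closest match for atrial pools 1 and 2, but not for pools 3 and 4. These weak values cannot settle whether the pools were paired. With the replicate block 4 members were higher and 5 lower, and 9 of 12 were kept, all but Psma6 (adjusted p = 0.054), Psmd2 (0.075) and Trim54 (0.060). Of the other genes named, Psmb10 (0.067) and Psmg2 (0.097) also no longer passed with the block. The 4 arrays per tissue limit the precision.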
